A study of Mus musculus with 4 samples.

Results

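The genes described here are 8 members of the Hedgehog signalling pathway: Shh, Ptch1, Smo, Gli1, Gli2, Gli3, Hhip and Sufu. They were chosen by name, and the counts of all tags that the authors' table assigns to the Ensembl gene of each were summed. They are 8 of 26252 features (Ensembl genes, or UniGene clusters where no Ensembl gene is given) in the table, and all 8 had counts and passed the filter on low counts. The samples were forelimbs and hindlimbs dissected from CD1 mouse embryos at E14.5, with 2 biological replicates of each limb type and 4 libraries in all. No treatment or genetic change is named in the labels, and they do not say how many embryos a sample held or whether equal replicate numbers share animals. Each library was made by DGE-SAGE, in which NlaIII cuts cDNA at CATG and the 17 bases next to a site are counted as a tag of that transcript.

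In Hedgehog signalling, a secreted ligand such as Shh binds the receptor Ptch1, which otherwise holds the membrane protein Smo inactive. Active Smo frees the Gli transcription factors from processing and from their inhibitor Sufu. Gli2 acts mainly as an activator, Gli3 mainly as a repressor in the limb, and Gli1 is an activator that is itself a target of the pathway. Ptch1 and Hhip, which binds the ligands at the cell surface, are also targets and limit the signal. In the limb, Shh from the posterior margin patterns the digits at early stages, and Ihh from cartilage later controls growth and maturation of the skeleton.

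Depth was 4695786 and 1829647 tags for the forelimb pair and 5325279 and 5015295 for the hindlimb pair, in the order of their numbers, which holds for every pair of values in the text. Between 81.3% and 85.2% of a library's tags carried a gene or cluster. Counts were scaled to CPM by library size and TMM, which makes a single count 0.621 CPM in the shallowest library, forelimb replicate 2, and 0.224 to 0.256 CPM elsewhere. The limb labels held in the data: Tbx5, which marks the forelimb, had 72 and 24 counts in forelimb and 4 and 6 in hindlimb, and Pitx1, Tbx4 and Hoxc10 of the hindlimb were all higher there. Tags with many G or C bases were more abundant in hindlimb libraries and tags with few in forelimb libraries, over all 37805 tags tested. The median log2 fold change, hindlimb over forelimb, was -1.03 for tags under 30% G or C and 1.91 for tags over 60%. Values from a second fit, called the tag-sequence offset, which models the base at each position of a tag, therefore stand beside the results. Whether that fit removes the trend with G or C content was not tested.

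The tags on which the results turn are shown here because each gene was read from few of them. Every tag is preceded by its NlaIII site in capitals, is written 5′ to 3′ on the strand of the transcript, and was found in a GENCODE M21 transcript of that gene and of no other.
Shh, last site: CATGttcttggaaaccaagac
Ptch1, coding: CATGgatttatacagacgtga
Ptch1, last site: CATGaataaagataatataac
Ptch1, second site from the end: CATGgtgacctagtgcggttc
Smo, coding: CATGagatttggggagcccac
Smo, last site: CATGttatttcttcctcacat
Gli1, last site: CATGaggtgcccagggatggg
Gli2, last site: CATGctcaacttgtaaataag
Gli3, last site: CATGaactctgccttggcttt
Gli3, the third site from the end: CATGcccagacagtgtcacca
Gli3, the eighth site from the end: CATGttagcggtccctcctag
Hhip, last site: CATGatcaaatgtattaaact
Hhip, second site from the end: CATGcctgaaatttgattaga
Sufu, last site: CATGatcttggtgccaggcga
Tags in the 3′ UTR held 79.0% of the 5338 counts of the 8 genes, and tags in the coding sequence 19.5%, with 112 counted tags in all. The last site is the one nearest the poly(A) tail. The last sites of a gene's transcripts held 3.16% of the counts of the Ptch1 entry. For the other genes they held from 26.0% of the counts of Gli3 to 87.98% of Gli1 and 96.7% of Shh. The Ensembl entry of Ptch1 has no count from the last-site tag shown, which stands elsewhere in the table.

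Gli3 was the most abundant of the 8 genes and Shh the least, by mean CPM over the 4 libraries. A tag counts a transcript molecule and not its length, so levels were not divided by length, although genes with many CATG sites can give several tags. The order of mean levels was Gli3, Smo, Gli1, Sufu, Gli2, Hhip, Ptch1 and Shh, at 136, 65.6, 59.6, 48.0, 46.3, 8.12, 6.59 and 2.21 CPM. Of the 28 gene pairs, 22 kept their order in all 4 libraries. Gli3 was above each of the other genes in every library under the deposited assignment of tags. Neighbours from Smo to Gli2 were not separated beyond their spread: Smo was above Gli1 in 3 of 4 libraries, Gli1 above Sufu in 3, and Gli2 above Sufu in 2. At the last sites alone, Gli1 came first with a mean of 52.6 CPM and Gli3 second with 35.3 CPM. The Gli3 transcript has 53 CATG sites, against 22 in Gli1, and 26.0% of its counts came from the last.

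Of the 8 genes, 1 was called between the limb types, Hhip, which was higher in forelimb (edgeR quasi-likelihood test, Benjamini-Hochberg adjusted p under 0.05). Over all 13718 features tested, 7.08% were called higher in forelimb, 9.58% higher in hindlimb and 16.7% in either direction, and the single call among the members is read against these shares. With the tag-sequence offset 0.809% of features were called, 0.539% towards hindlimb and 0.27% towards forelimb, and 0 members. With quadratic terms added to that offset after the data had been seen, 0.168% were called, 0.0875% towards hindlimb and 0.0802% towards forelimb, and again 0 members. At an unadjusted p under 0.05 there were 3 members in the first fit, and 4451 of all 13718 features. DESeq2 called 1, also Hhip. The median log2 fold change of the 8 was 0.32, with 6 above 0 and 2 below, and that of all tested features was -0.029. The libraries of the limb types did not overlap for 5 of the 8, which is also the case for 62.8% of all tested features. In bulk tissue, fewer cells of a type and less RNA per cell cannot be told apart.

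**Figure D1:**
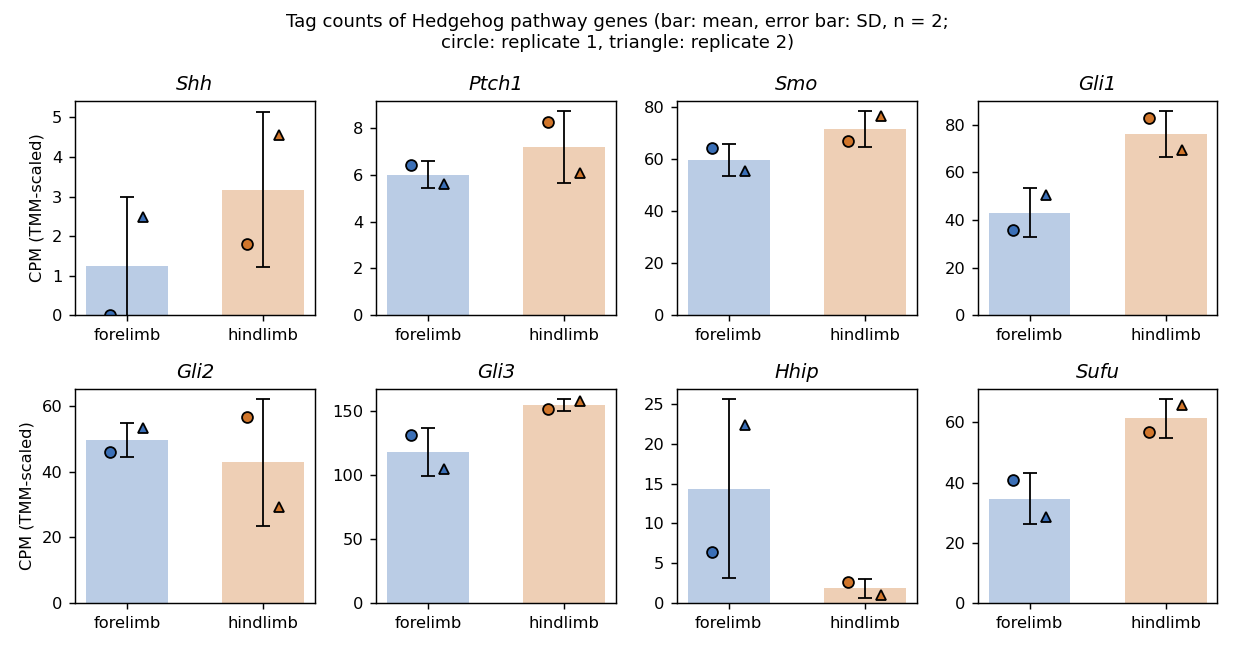
TMM-scaled CPM (y axis, from 0) of each gene in forelimb and hindlimb; bars are means, error bars SD over 2 libraries, circles replicate 1 and triangles replicate 2. Both forelimb libraries lie above both hindlimb libraries for Hhip, and the reverse holds for Smo, Gli1, Gli3 and Sufu.

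Shh, the ligand (ENSMUSG00000002633, chromosome 5, 28456815 to 28467256, minus strand), was close to the counting limit. It had 0 and 4 counts in forelimb replicates 1 and 2, and 8 and 18 in hindlimb replicates 1 and 2. A count of 0 in forelimb replicate 1 allows up to 0.768 CPM, at 3 counts. All but 1 of its 30 counts came from the last-site tag in the 3′ UTR (chr5:28457102-28457122). The highest value was in hindlimb replicate 2, and forelimb replicate 2 lay between the hindlimb libraries in CPM (2.49, against 1.79 and 4.56). The difference was 1.70 ± 1.43 on the log2 scale (SE, edgeR adjusted p = 0.443), with an approximate 95% interval from -1.30 to 4.69, so no difference was detectable at this depth. It was 0.34 without forelimb replicate 1, and without forelimb replicate 2 the forelimb stands at 0 counts.

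Ihh, the ligand of the growing skeleton, was more abundant than Shh in every library. Its CPM was 43.8 and 32.3 in forelimb and 37.6 and 32.5 in hindlimb, and the limb types overlapped (log2 fold change -0.13 ± 0.37 SE, edgeR adjusted p = 0.836). Dhh, the remaining ligand, had 8 counts in all and was not tested. Against 16.7% of all features called by edgeR, 0 were called of the 6 tested among 8 genes listed for ligands and their release. Scube1, of the family that helps release the ligand, was the most abundant of them, with 81.2 and 75.8 CPM in forelimb and 105 and 85.2 CPM in hindlimb (0.28 ± 0.32 SE, adjusted p = 0.594). It passed, at 1.74 to 1.75, with the tags that match 1 M21 gene, under the deposited or the M21 assignment, and at 1.47 from the last site. It stood at -1.36 (adjusted p = 0.103) from its most abundant tag and at 0.77 with the tag-sequence offset.

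Ptch1, the receptor (ENSMUSG00000021466, chromosome 13, 63508328 to 63573598, minus strand), is undercounted by its Ensembl entry. That entry had 25 and 9 counts in forelimb and 37 and 24 in hindlimb, 95 in all from 11 tags. The most abundant of these, with 36 counts, lies in the coding sequence (chr13:63534326-63534346), 5762 bases from the transcript's end. The tags at the 4 last CATG sites of the Ptch1 transcript were in the table under a UniGene cluster with no Ensembl gene. These tags match Ptch1 and no other M21 gene, and they held 283 and 178 counts in forelimb and 205 and 83 in hindlimb, 749 in all. A further 21 tags that match Ptch1 alone had no gene in the table and held 280 counts. When each tag was given the gene it matched in M21, an assignment chosen after the data had been seen, Ptch1 had 1105 counts, 11.6 times those of its Ensembl entry. Its mean level then ranked second among the 8 genes, after Gli3, in place of seventh. In forelimb replicate 2 it was above Gli3 (193 against 147 CPM), and 17 of the 28 gene pairs kept their order in all 4 libraries.

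**Figure D2:**
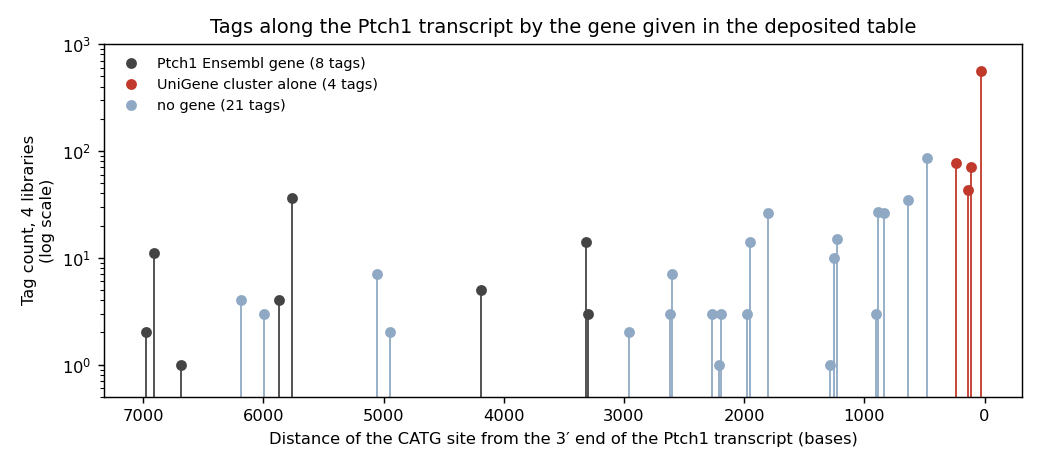
Total count of each tag over 4 libraries (y axis, log scale) against the distance of its CATG site from the 3′ end of the Ptch1 transcript (x axis, in bases), for 33 tags found in that transcript, coloured by the gene the authors' table gives. The 4 tags nearest the end, with up to 558 counts, stand under a UniGene cluster alone, and the tags under the Ensembl gene lie upstream.

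The limb difference of Ptch1 depended on which tags were read. The Ensembl entry had 6.40 and 5.59 CPM in forelimb and 8.27 and 6.09 CPM in hindlimb, and the libraries overlapped. The difference on the log2 scale was 0.25 ± 0.67 (SE, edgeR adjusted p = 0.832), with an approximate 95% interval from -1.17 to 1.66. The UniGene cluster with the last 4 sites, named after its values were seen, had 72.5 and 111 CPM in forelimb and 45.8 and 21.04 CPM in hindlimb. Both forelimb libraries were above both hindlimb libraries, at -1.44 ± 0.40 on the log2 scale (SE, adjusted p = 0.0206). With all tags assigned by M21 it was -0.96 ± 0.35 (SE, adjusted p = 0.0635), where 16.7% of 12548 genes were called, 9.89% towards hindlimb and 6.78% towards forelimb, and 1 member, Hhip.

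The tags of the Ptch1 cluster did not move together. The last-site tag (chr13:63508339-63508359), which has 2 G or C bases among 17, had 63.5 and 91.3 CPM in forelimb and 31.3 and 5.83 CPM in hindlimb. The tag at the second site (chr13:63508421-63508441), with 10 G or C bases, had 2.05 and 0.621 CPM in forelimb and 5.59 and 9.38 CPM in hindlimb. Their log2 fold changes were -2.05 and 2.29, and the values predicted from tag sequence alone were -2.94 and 1.41. With the tag-sequence offset the cluster stood at 0.43 ± 0.31 (SE, adjusted p = 0.610) and with quadratic terms at -0.21 (adjusted p = 0.885), and Ptch1 assigned by M21 at 0.45 ± 0.28 (SE, adjusted p = 0.526). The call on the cluster was also lost when either second replicate was left out (-1.12 without that of forelimb, -0.97 without that of hindlimb) and with an offset for G or C content (-0.45).

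Co-receptors and binding proteins that act with Ptch1 were abundant, and 0 of the 5 tested of 6 listed were called by edgeR, against 16.7% of all features. Gpc3, a glypican that binds Hedgehog ligands, had 752 and 732 CPM in forelimb and 1022 and 917 CPM in hindlimb (0.39 ± 0.31 SE, adjusted p = 0.410). Gas1, a co-receptor that promotes the signal, had 533 and 676 CPM in forelimb and 373 and 320 CPM in hindlimb. The limb types of Gas1 did not overlap, and the difference was -0.80 ± 0.31 on the log2 scale (SE, edgeR adjusted p = 0.0818). Gas1 passed with DESeq2 (-0.81, adjusted p = 0.0253), without hindlimb replicate 1 (-0.93), from its most abundant tag (-1.16) and with an offset for G or C content (-1.01), and stood at 0.13 with the tag-sequence offset and -0.12 with quadratic terms. Under the tag-sequence offset, where 0.809% of all features were called, 1 gene of this list was called, the co-receptor Cdon, named after its value was seen. Cdon stood at 1.13 ± 0.23 (SE, edgeR adjusted p = 0.0198), against -0.45 ± 0.35 (SE) without the offset. Quadratic terms ended that call (0.78, adjusted p = 0.227).

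Hhip, the ligand-binding antagonist (ENSMUSG00000064325, chromosome 8, 79965851 to 80058006, minus strand), was higher in forelimb. It had 25 and 36 counts in forelimb and 12 and 4 in hindlimb. In CPM these were 6.40 and 22.4 in forelimb and 2.68 and 1.01 in hindlimb, with means of 14.4 ± 11.3 and 1.85 ± 1.18 (SD, n = 2 each). Forelimb replicate 2 was the highest library, and both forelimb libraries were above both hindlimb libraries. The difference was -2.87 ± 0.81 on the log2 scale (SE, edgeR adjusted p = 0.0222), with an approximate 95% interval from -4.57 to -1.17. The call ended without forelimb replicate 2 (-1.77, adjusted p = 0.418), without hindlimb replicate 2 (-2.33, adjusted p = 0.0677), with an offset for G or C content (-2.13, adjusted p = 0.109) and under the tag-sequence offset (-2.11, adjusted p = 0.236). It stayed below 0 in each of the 17 alternatives that gave a value, from -3.73 to -1.77.

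Hhip was read from 10 tags that were not high in the same libraries. The last-site tag (chr8:79965867-79965887), with 29 counts, had 5 and 20 counts in forelimb and 4 and 0 in hindlimb. The tag at the second site (chr8:79965911-79965931) had 13 and 4 counts in forelimb and 1 and 0 in hindlimb. They have 3 and 5 G or C bases among 17. Of the 18 counts of the second-site tag, 17 were in forelimb, and it passed the filter on low counts only through those libraries. With 11 further tags that matched Hhip but had no gene in the table, the counts were 46 and 47 in forelimb and 22 and 8 in hindlimb (-2.47 ± 0.62 SE, adjusted p = 0.0113). With the tag-sequence offset that call also ended (-1.83 ± 0.58 SE, edgeR adjusted p = 0.160).

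Smo, the transducer that Ptch1 inhibits (ENSMUSG00000001761, chromosome 6, 29735503 to 29761365, plus strand), had 250 and 89 counts in forelimb and 298 and 301 in hindlimb, or 64.0, 55.3, 66.6 and 76.3 CPM. The limb types did not overlap but lay close together, with a log2 fold change of 0.26 ± 0.33 (SE, edgeR adjusted p = 0.640) and an approximate 95% interval from -0.44 to 0.95. Its most abundant tag, with 44.9% of the counts, lies in the coding sequence (chr6:29754844-29754864), at the site numbered 14 from the end. The last-site tag (chr6:29761078-29761098) held 30.8%. From the last site alone the value was -0.35, and with the tag-sequence offset 0.51 ± 0.26 (SE), neither past the test.

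Gli1, the activator and pathway target (ENSMUSG00000025407, chromosome 10, 127329882 to 127341974, minus strand), had 140 and 81 counts in forelimb and 371 and 273 in hindlimb. In CPM it had 35.9 and 50.3 in forelimb and 82.9 and 69.2 in hindlimb, with means of 43.1 ± 10.2 and 76.1 ± 9.71 (SD, n = 2 each). Both hindlimb libraries were above both forelimb libraries. The log2 fold change was 0.83 ± 0.35 (SE, unadjusted p = 0.0279, edgeR adjusted p = 0.106), which did not pass the test. Of its counts, 87.98% came from the last-site tag (chr10:127329983-127330003), which has 12 G or C bases among 17. It turned to -0.73 with an offset for G or C content, and stood at 1.14 ± 0.28 (SE, adjusted p = 0.0672) under the tag-sequence offset and at 0.29 (adjusted p = 0.784) when quadratic terms were added to that.

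Gli2, mainly an activator (ENSMUSG00000048402, chromosome 1, 118834132 to 119053619, minus strand), had 180 and 86 counts in forelimb and 253 and 115 in hindlimb. In CPM it had 46.1 and 53.4 in forelimb and 56.6 and 29.2 in hindlimb. Hindlimb held both the highest and the lowest library, with a log2 fold change of -0.21 ± 0.38 (SE, edgeR adjusted p = 0.749) and an approximate 95% interval from -1.01 to 0.60. Its last-site tag (chr1:118834166-118834186), with 5 G or C bases, held 57.9% of the counts. It had 25.1 and 29.2 CPM in forelimb and 33.5 and 18.3 CPM in hindlimb. The value was 0.21 without hindlimb replicate 2 and -0.78 without hindlimb replicate 1.

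Gli3, mainly a repressor in the limb (ENSMUSG00000021318, chromosome 13, 15463235 to 15730026, plus strand), had 512 and 168 counts in forelimb and 677 and 623 in hindlimb. Its CPM was 131 and 104 in forelimb and 151 and 158 in hindlimb, with means of 118 ± 18.9 and 155 ± 4.67 (SD, n = 2 each). The limb types did not overlap, and the difference was 0.39 ± 0.31 on the log2 scale (SE, edgeR adjusted p = 0.417), with an approximate 95% interval from -0.27 to 1.04. It was 0.20 ± 0.23 (SE) with the tag-sequence offset and -0.029 from the last site alone.

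The tags of Gli3 changed in ratio between the limb types. Of the 5 members with at least 2 tags tested, Gli3 was the 1 called for differing tag usage (diffSpliceDGE in edgeR, adjusted p = 0.0262), where 10.4% of 8694 genes were called. The tag at the third site (chr13:15729570-15729590) had 9 and 5 counts in forelimb and 123 and 105 in hindlimb. The tag at the eighth site (chr13:15728867-15728887) had 17 and 1 counts in forelimb and 100 and 112 in hindlimb. The last-site tag (chr13:15729913-15729933) had 175 and 39 counts in forelimb and 148 and 152 in hindlimb. These 3 tags all lie in the 3′ UTR, at 457, 1160 and 114 bases from its end. The log2 fold changes of the tags at the third and eighth sites were 3.34 and 3.11, and that of the last-site tag was 0.024.

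Predictions from tag sequence, fitted over all genes, had the same sign as the measured values for the Gli3 tags that were high in hindlimb. They were 2.08 and 1.22 for the tags at the third and eighth sites and -0.47 for the last-site tag. The call on tag usage of Gli3 was lost when any library other than hindlimb replicate 1 was left out. Over the 27 tested tags of the members and of the Ptch1 cluster, 12 of 13 tags under 45% G or C were below 0, and 10 of 14 tags above that were above 0. Predicted and measured fold changes had the same sign in 19 of the 27. Their Pearson correlation was 0.68 over these tags and 0.76 over all 37805 tags tested. The predictions were fitted on these same libraries, so these values are a description.

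**Figure D3:**
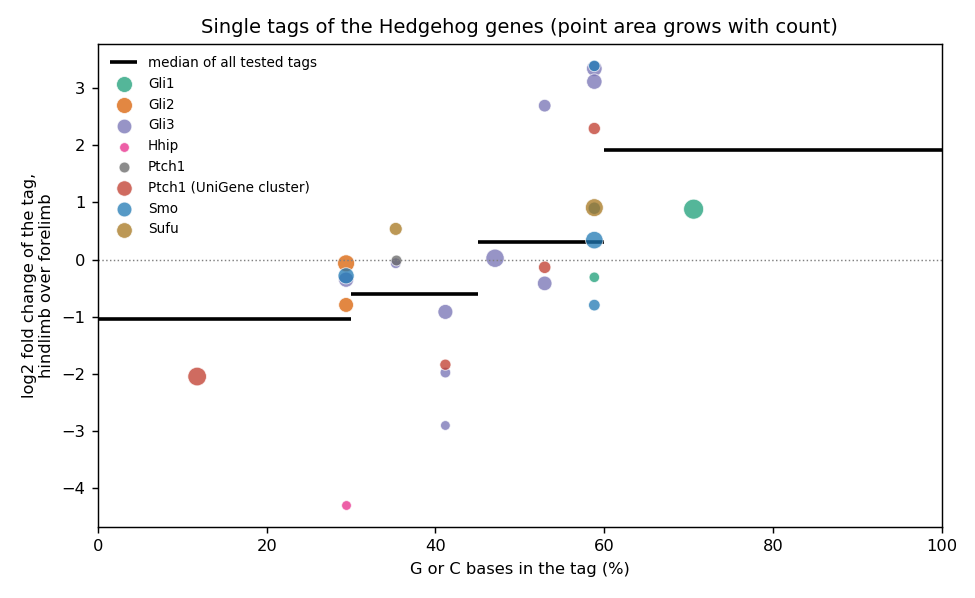
Log2 fold change of single tags, hindlimb over forelimb (y axis), against the percent of G or C bases in the tag (x axis), for 27 tested tags; point area grows with the count and colours mark genes. Black lines are the medians of all tested tags in 4 ranges of G or C percent, from -1.03 in the lowest to 1.91 in the highest, and the Gli3 tags at the third and eighth sites lie at 3.34 and 3.11.

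Among the counts of the 3 Gli genes over all their tags, Gli3 held the largest share in each library. From the last sites alone, Gli3 was above Gli1 in forelimb replicate 1 (44.8 against 29.4 CPM). It was below Gli1 in forelimb replicate 2 (24.9 against 44.7 CPM) and in hindlimb (33.1 and 38.5 against 70.6 and 65.4 CPM). The share of Gli3 over all tags was 61.5% and 50.1% in forelimb and 52.0% and 61.6% in hindlimb. That of Gli1 was 16.8% (95% Wilson interval 14.4% to 19.5%) and 24.2% (19.9% to 29.0%) in forelimb, and 28.5% (26.1% to 31.0%) and 27.0% (24.4% to 29.8%) in hindlimb. That of Gli2 was 21.6% and 25.7% in forelimb and 19.4% and 11.4% in hindlimb. The Gli1 share was lowest in forelimb replicate 1, and the intervals of forelimb replicate 2 and both hindlimb libraries overlapped. Gli2 was above Gli1 in both forelimb libraries and below it in both hindlimb libraries, but in forelimb replicate 2 this rests on 86 against 81 counts with overlapping intervals. From the last sites alone Gli1 was above Gli2 in all 4 libraries, and the main tags of Gli1 and Gli2 have 12 and 5 G or C bases. The difference in order was not tested. Since the reads carry no molecular identifiers and were amplified, these intervals, and the limit at 0 counts, cover counting error only.

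**Figure D4:**
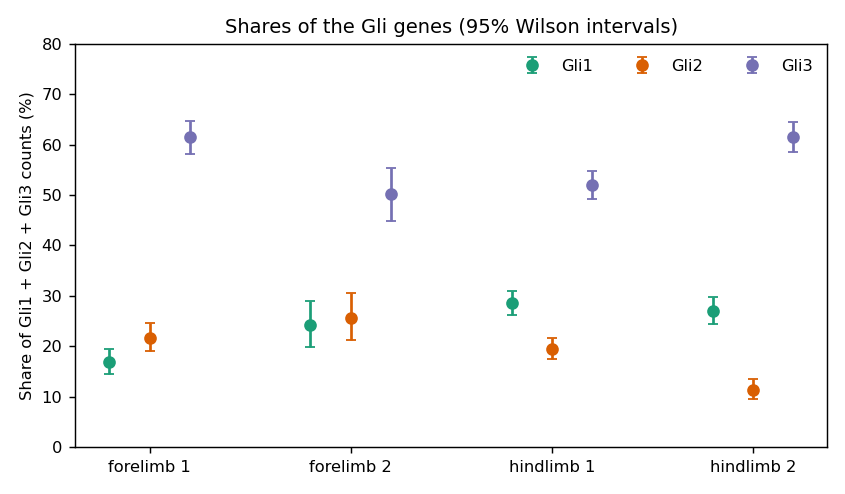
Share of the summed Gli1, Gli2 and Gli3 counts over all tags (y axis, percent) held by each gene in the 4 libraries (x axis), with 95% Wilson intervals that cover counting error only. Gli3 is at 50.1% to 61.6%, Gli1 at 16.8% to 28.5% and Gli2 at 11.4% to 25.7%.

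Sufu, the inhibitor that binds Gli proteins in the cytoplasm (ENSMUSG00000025231, chromosome 19, 46396896 to 46488804, plus strand), had 159 and 46 counts in forelimb and 254 and 260 in hindlimb. In CPM it had 40.7 and 28.6 in forelimb and 56.8 and 65.9 in hindlimb, and the limb types did not overlap. The log2 fold change was 0.81 ± 0.36 (SE, unadjusted p = 0.0375, edgeR adjusted p = 0.128), which did not pass. Its last-site tag (chr19:46488526-46488546), with 10 G or C bases, held 64.5% of the counts, with 28.7 and 12.4 CPM in forelimb and 32.0 and 47.9 CPM in hindlimb. With the tag-sequence offset the value was 0.49 ± 0.28 (SE), and with an offset for G or C content it was 0.18.

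**Figure D5:**
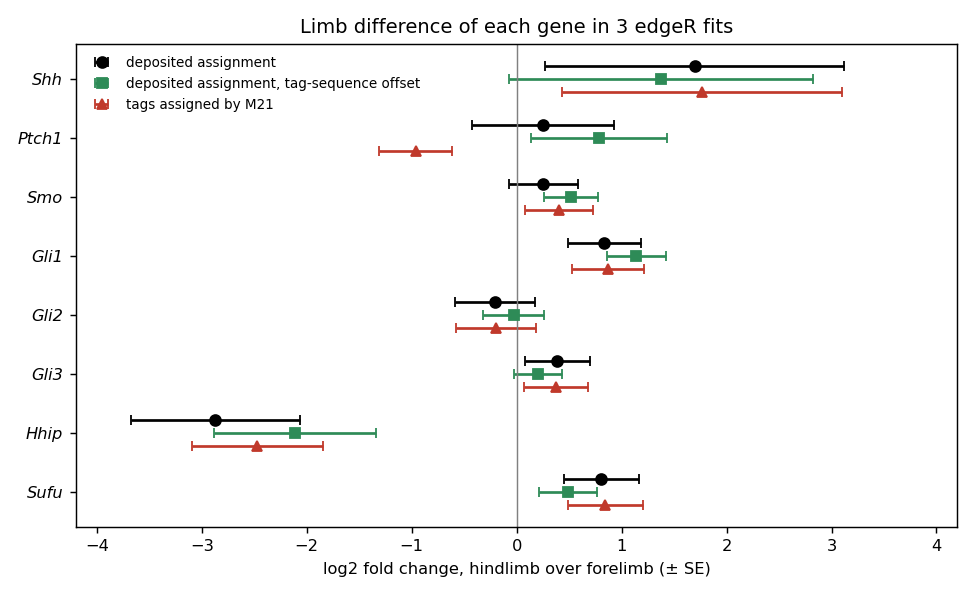
Log2 fold change, hindlimb over forelimb, with its SE (x axis) for each gene (y axis) in 3 edgeR fits: the deposited assignment, the same with the tag-sequence offset, and tags assigned by M21. Hhip lies between -2.87 and -2.11 in the 3 fits, while Ptch1 lies at 0.25, 0.78 and -0.96.

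Of 17 genes of signal transduction and Gli processing, 16 were tested and 0 were called by edgeR, where 16.7% of all features were, with a median log2 fold change of 0.032. Csnk1a1, casein kinase 1 alpha, and Prkar1a, the regulatory subunit of protein kinase A, were the most abundant of them. Csnk1a1 had 462 and 385 CPM in forelimb and 374 and 348 CPM in hindlimb (-0.23 ± 0.30 SE, adjusted p = 0.646). Prkar1a had 318 and 331 CPM in forelimb and 311 and 282 CPM in hindlimb (-0.13 ± 0.30 SE, adjusted p = 0.803). Casein kinase 1 and protein kinase A both phosphorylate Gli proteins.

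Of 14 genes of the primary cilium, the organelle in which vertebrate Hedgehog signalling takes place, 14 were tested. Of these, 1 was higher in forelimb, against 7.08% of all features, and 13 did not pass (median -0.22). The called gene was Arl13b, a small GTPase of the ciliary membrane, with 92.4 and 59.6 CPM in forelimb and 23.0 and 14.45 CPM in hindlimb. Its difference was -2.03 ± 0.39 on the log2 scale (SE, edgeR adjusted p = 0.00312). It turned to 0.38 (adjusted p = 0.641) with the tag-sequence offset and stood at -0.28 (adjusted p = 0.806) with quadratic terms added, and its call also ended with an offset for G or C content (-0.88).

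Of 15 downstream genes of limb and skeleton, 14 were tested. Of these, 1 was higher in hindlimb, against 9.58% of all features, and 13 did not pass (median -0.061). The called gene was Hand2, a transcription factor of the posterior limb that acts upstream of Shh and is maintained by it. It had 62.5 and 50.9 CPM in forelimb and 111 and 283 CPM in hindlimb, with both hindlimb libraries above both forelimb libraries (1.79 ± 0.40 SE, edgeR adjusted p = 0.00672). Its call ended without forelimb replicate 2 (1.64), without hindlimb replicate 2 (0.97), with the tag-sequence offset (0.96) and with an offset for G or C content (0.73).

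Markers of the skeletal cells that send and receive the signal, and of muscle, were counted in all libraries. The summed level of 4 markers of prehypertrophic and hypertrophic chondrocytes (Ihh, Col10a1, Pth1r and Mef2c) was 666 to 716 CPM in forelimb and 470 to 544 CPM in hindlimb, with 2 of 4 called higher in forelimb and 0 with the tag-sequence offset. The 6 chondrocyte markers together had 3229 to 3529 CPM in forelimb and 3808 to 4876 CPM in hindlimb, with 1 called in each direction and 0 with that offset. Col2a1, the marker called higher in hindlimb, had 1098 and 777 CPM in forelimb and 1864 and 3293 CPM in hindlimb. Sox9 was also higher in both hindlimb libraries, Col11a1 and Matn1 were lower in both, and Acan and Col9a1 overlapped. The median log2 fold change of the 6 was -0.13, so the sum does not speak for each marker. Markers of perichondrium and osteoblasts had 4285 to 4375 CPM in forelimb and 3561 to 3626 CPM in hindlimb, with 2 of 6 called higher in forelimb and 1 called with that offset. Col1a1 alone had 3797 and 3854 CPM in forelimb and 3413 and 3345 CPM in hindlimb, and it was not called. Ibsp and Spp1 were the 2 called. Sp7 was higher in both hindlimb libraries, and Runx2 and Alpl overlapped. Skeletal muscle markers had 2491 to 2939 CPM in forelimb and 961 to 1036 CPM in hindlimb, with 5 of 7 called higher in forelimb and 3 called with that offset. Acta1 alone had 1980 and 1362 CPM in forelimb and 522 and 548 CPM in hindlimb. Of the 2 not called, Myog overlapped and Myod1 was higher in both hindlimb libraries. Myod1 had 19.7 and 20.5 CPM in forelimb and 25.9 and 44.1 CPM in hindlimb. In each of these 4 lists the forelimb and hindlimb ranges of the sums did not overlap, and none of their defining markers was at 0. Single features did not overlap in 62.8% of all tested. The sums of marker lists for epidermis, erythroid cells, macrophages and nerve did not overlap either, while those for limb mesenchyme and endothelium did. Over all features, 7.08% were called higher in forelimb and 9.58% higher in hindlimb, and 0.809% in either direction with the tag-sequence offset. The part of these 4 lists in the values of Hhip and Ptch1 was not tested.

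For the 3 most abundant members, the genes with the most similar pattern over the 4 libraries were named, among 10779 other genes of at least 5 CPM. The measure was the distance between log2 CPM values centred on each gene's mean, so levels could differ. The closest were Apbb2, Gid4 and Scd1 for Gli3 (distances of 0.031, 0.040 and 0.051), Raly, Nans and Rala for Smo (0.025, 0.038 and 0.053), and Mcrip1, Plagl2 and Fam214b for Gli1 (0.084, 0.085 and 0.089). With 4 libraries and this many genes, close matches are common, and the distances are given as a description.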

How the data were processed

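Per the labels' protocols, tags were made by Illumina tag profiling with NlaIII from total RNA of dissected limbs. The authors deposited 1 table of raw tag counts; per the submitters' processing notes, Bowtie and build mm9 were used, with the version not given in the sources used here. Counts of the 733961 tags, all of 17 bases, were summed per Ensembl gene or UniGene cluster. Tags with neither, 14.8% to 18.7% of a library, were left out. Gene positions, symbols and tag placements are from GENCODE M21 (GRCm38), not mm9; of the counts of tags that match 1 M21 gene and have an Ensembl gene in the table, 98.0% lay in tags given that same gene.

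The limb types were compared by edgeR 4.0.16 (R 4.3.3; glmQLFit, TMM, filterByExpr, Benjamini-Hochberg over all features, threshold 0.05) without a replicate block, after testing on simulated data. The log2 fold changes are hindlimb over forelimb, and approximate intervals are from the SE. The members and gene lists were chosen with earlier results of these data known. The text names all members, called genes of each list (at most 4), or the 2 most abundant where none was called; exceptions are marked. The tag-sequence offset models base and position in each library and was fitted within genes, from how the tags of a gene differ, over 61466 tags. Other alternatives were DESeq2 1.42.0, other scalings, no filter, equal depth, fewer tags, an offset for G or C content, leaving out each library, and a replicate block. The quadratic terms, the M21 assignment of tags and the crossed block were chosen after seeing the data. The p-values measure the spread between samples that the labels call biological replicates. With 2 residual degrees of freedom, edgeR moderated the spread of each gene towards that of all tested features.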

Additional observations from a re-analysis of the deposited data

Results flagged for a closer look

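Tags that match the transcript of a member and of no other M21 gene, but that the authors' table does not assign to that gene, lay outside the comparisons by Ensembl gene. They are listed because their counts exceed the limit that a count of 0 allows (3 counts). On the sense strand these tags held 1029 counts for Ptch1, 113 for Smo, 15 for Gli1, 64 for Gli2, 125 for Gli3, 47 for Hhip and 6 for Sufu. For Ptch1 this was more than the 95 counts of the Ensembl entry, and for Hhip it compares with 77.

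Tags on the opposite strand of a member's transcript, next to a CATG, held 202 counts for Ptch1, 144 for Smo, 7 for Gli1, 6 for Gli2, 173 for Gli3, 14 for Hhip and 8 for Sufu. For Ptch1 they had 69 and 33 counts in forelimb and 78 and 22 in hindlimb, and for Gli3 52 and 14 in forelimb and 40 and 67 in hindlimb. Shh had no such tag on either strand.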

How the results depend on the processing

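All 19 alternatives were run, and those a gene could not enter give no value: Hhip and Shh were not tested from the most abundant tag or the last site, nor Ptch1 from the last site, and Shh also gave no value with DESeq2, at equal depth or without hindlimb replicate 2. With 1314 genes higher in hindlimb and 971 in forelimb at first, the offset for G or C content left 394 and 410, the tag-sequence offset 74 and 37, that offset with quadratic terms 12 and 11, and that offset with tags assigned by M21 68 and 27. Leaving out a library gave 583 to 1899 genes higher in hindlimb and 367 to 2001 in forelimb; the lowest counts were without forelimb replicate 2 and the highest without hindlimb replicate 1. Of the members, 1 was called at first and 0 in each of these 4 fits with an offset, and 0 from the most abundant tag and the last site, where Hhip was not tested. Leaving out a library gave 0 to 1 members called, and 0 to 1 members called for tag usage. Reversed were Arl13b, at 0.38 with the tag-sequence offset and 0.41 with tags assigned by M21 and that offset, and the Ptch1 cluster, at 0.43 with the tag-sequence offset. The causes of these changes were not tested. Among members not called, the sign turned in at least 1 alternative for Ptch1, Smo, Gli1, Gli2 and Gli3, and in none for Shh and Sufu.

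With the replicate number as a block, 1181 and 970 genes were called higher in hindlimb and forelimb, and 1 member. The labels give the limb types the same numbers without saying that a number marks shared animals, and the deviations of equal numbers correlated at -0.11 across 13718 genes. With the numbers crossed, a replicate block chosen after seeing the data gave 1684 and 1486 genes. The depth of forelimb replicate 2 and the low counts of Shh, Hhip and Ptch1 limit what could be detected.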
